A study of Neurospora crassa with 3 samples.

Results

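Poly-A RNA of the filamentous fungus Neurospora crassa was compared between the genotype labelled set-2 H3G34R and the genotype labelled set-2 ash1(Y888F), across all genes with enough reads to test. The comparison was chosen by its labels and not by any measured value. It takes 2 of the 3 samples and 4 of the 6 libraries of the series, and 8561 of the 9730 genes in the count tables passed the filter on low counts. Cultures of every group were kept shaking in liquid Vogel's medium at 32 °C for 18 h. The labels name germinated conidia as the source and mycelium as the tissue. The set-2 H3G34R group is strain N6777, which carries a histone H3 with glycine 34 changed to arginine and is described as lacking set-2, and both of its libraries come from that strain. The set-2 ash1(Y888F) group is strains N6266 and N6267, 1 library each, which carry an ASH1 with the tyrosine-to-phenylalanine change that the label names and are also described as lacking set-2. The H3G34R group, strains N5247 and N5248, entered the fit for its estimate of the spread and is given as context. Both genotypes compared therefore share the set-2 label and differ in the H3 and ASH1 alleles and in the strain itself. Nothing in the labels says that the libraries of N6777 came from separate cultures, so the p-values measure the spread between libraries, which may be technical there.

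ASH1 and SET-2 are the methyltransferases that place methyl groups on lysine 36 of histone H3 in this fungus. SET-2 travels with elongating RNA polymerase II and marks the bodies of transcribed genes, whereas ASH1 marks many poorly transcribed genes. Glycine 34 lies close to lysine 36 on the H3 tail. The comparison addresses whether RNA levels differ between an H3 that carries the glycine change and an ASH1 that carries the catalytic change when set-2 is named in both.

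Sense reads assigned to genes numbered 7.52 to 9.41 M (1e6 reads) in the 4 libraries compared. Unmapped reads were 1.31% and 1.61% in set-2 H3G34R, against 4.23% and 3.47% in set-2 ash1(Y888F), and reads at several places were 5.32% and 4.09%, against 2.76% and 2.27%. The part of these mapping differences in the results was not tested. The gene set-2 (NCU00269) had 299 and 269 sense reads in set-2 H3G34R libraries, against 171 and 123 in set-2 ash1(Y888F) libraries. H3G34R, without the set-2 label, had 322 and 252. These reads go against a complete deletion, so groups are called by their labels. The log2 difference of 0.54 between the 2 genotypes did not pass the edgeR test used below (adjusted p = 0.0632). In the authors' deposited tables set-2 was at log2 values of 1.35 in set-2 H3G34R and −0.01 in set-2 ash1(Y888F) relative to wild type. Its wild types, derived as described below, differed by −0.81. All matched markers of mycelium, the labelled tissue, had reads in every library. The 3 matched of 4 mycelium markers summed to 6765 and 7075 CPM (reads per 1e6 sense reads in genes, scaled by TMM, which equalises libraries over genes of moderate change) in set-2 H3G34R and to 8564 and 7386 CPM in set-2 ash1(Y888F). Below, a pair of values joined by "and" gives the libraries of a genotype in the order 1 and 2, or N6266 and N6267 (n = 2 each).

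RNA levels differed for 3264 of 8561 tested genes, or 38.1% of them, by the quasi-likelihood test of edgeR at a Benjamini-Hochberg adjusted p of 0.05. Those higher in set-2 H3G34R numbered 1562 (18.2%) and those lower 1702 (19.9%). Most differences were moderate. Of the genes past the test, 620 differed by less than 1.5-fold, 1160 by 1.5 to 2-fold, 1060 by 2 to 4-fold and 424 by at least 4-fold, of which 226 were higher (2.64% of tested genes) and 198 lower (2.31%). The share past the test was 27.8% in the lowest of 4 equal bands of mean CPM and 45.7% in the highest, where the standard error was smaller (median 0.357 and 0.129 on the log2 scale in the same order). Scaling by library size alone moved the median log2 of all genes to 0.25, against 0.02 with TMM, and the split to 2673 higher and 1163 lower. Of the 3264 genes, 1124 also passed in the same direction in each fit that left out 1 of the 6 libraries. Without set-2 H3G34R library 1 or 2, 1551 and 1388 genes passed, and without N6267 371 genes were at least 4-fold higher.

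**Figure D1:**
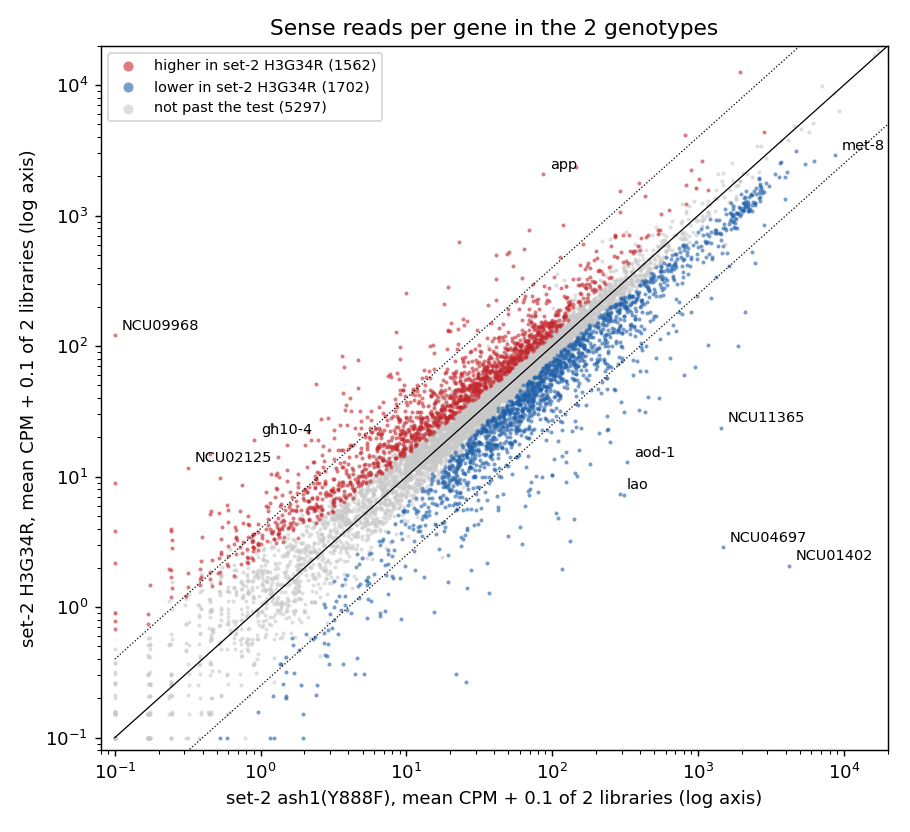
Mean CPM + 0.1 per gene in set-2 H3G34R (vertical, log axis) against set-2 ash1(Y888F) (horizontal, log axis), 2 libraries each, for 8561 tested genes. Red points were higher (1562), blue points lower (1702) and grey points did not pass the test, the solid line marks equal levels and the dotted lines a 4-fold difference.

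A measurement that touches every result below is the wild type behind each genotype. The authors compared each genotype with wild type in a deposited table. From the mean and fold change in that table, the level of each gene in its wild-type libraries was derived. That mean also covers the genotype's own libraries, so a fold change drawn towards 0 would bring the derived level closer to the genotype's level. NCU09969 had 0 sense reads in N6266 and N6267, yet its deposited log2 fold change in set-2 ash1(Y888F) was −2.92. Counts of 0 alone set no finite fold change. How far the deposited fold changes were drawn is not known here, and the part of such drawing in the shares and correlations below was not tested. These derived wild-type levels were unlike in the authors' 2 deposited tables. Among 6373 genes whose mean exceeded 50 and whose fold change stayed under 3 on the log2 scale in either direction in both tables, 2182 (34.2%) were over 2-fold apart between the derived wild types, against 867 (13.6%) between the genotypes themselves. Of the 2487 such genes past the test, 2065 (83.0%) differed in the same direction between the derived wild types as between the genotypes, and of the 3886 genes not past it 2502 (64.4%) did. The shares without set-2 H3G34R library 1 or 2 were 1036 of 1178 genes (87.9%) and 850 of 1000 genes (85.0%). The Pearson correlation of the genotype log2 difference with the derived wild-type log2 difference was 0.596 across these genes, which are not independent and share the libraries. The genotype difference was also set against the difference of the authors' deposited fold changes, each taken over its own wild type. That Pearson correlation was −0.011, and 1154 of the 2487 called genes (46.4%) had the same sign in both, so a gene given below as higher or lower between the genotypes need not be so relative to wild type. The labels name no batch. Genotype, strain and the set of libraries that each genotype was deposited with cannot be told apart, so the derived wild-type difference (the wild type of the set-2 H3G34R table over that of the set-2 ash1(Y888F) table, log2) is given with the genes and lists below. Single-gene values were derived without the limits on mean and fold change.

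**Figure D2:**
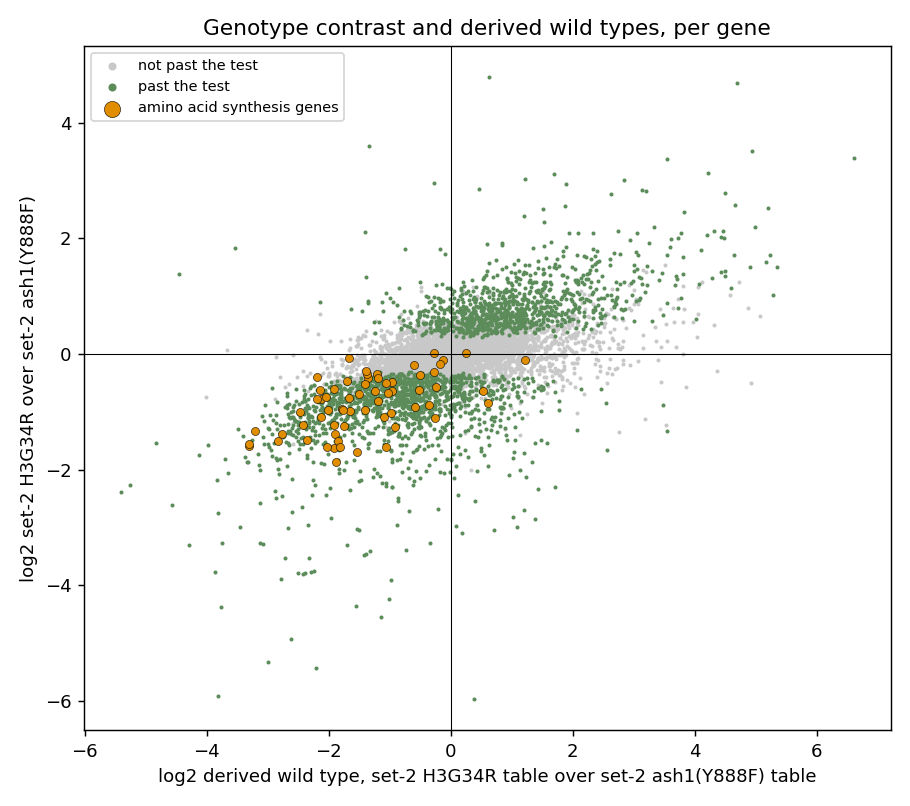
Log2 difference of set-2 H3G34R over set-2 ash1(Y888F) (vertical) against the log2 difference between the wild types derived from the authors' deposited tables (horizontal), for 6373 genes. Green points passed the test, grey points did not, and orange points are amino acid synthesis genes, most of which lie below 0 on both axes.

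Genes of amino acid synthesis were lower in set-2 H3G34R. Of 66 tested genes, 52 were lower and none higher, with 14 not past the test, a share of 78.8% lower beside 19.9% of all genes. Their median log2 difference was −0.80, beside 0.02 over all genes, and 64 of 66 values were below 0. Their summed level was 17435 and 17413 CPM in set-2 H3G34R, against 39165 and 32191 CPM in set-2 ash1(Y888F). Between the derived wild types 62 of the 66 genes were also below 0, with a median of −1.45. Calls from the authors' deposited tables are taken here and below at their adjusted p under 0.05 and over 1.5-fold. In these tables set-2 H3G34R had 35 of the 66 genes called higher and 7 lower than its wild type, beside 19.6% and 21.8% of all genes. For set-2 ash1(Y888F) 2 were called higher and 5 lower than its own wild type, beside 10.8% and 6.41% of all genes. The tables thus call unlike shares of all genes, and the part of this in the counts was not tested. Leaving out set-2 H3G34R library 1 or 2 left 34 and 30 of the genes lower.

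Lower levels ran through most amino acid families. All 10 genes of the aromatic families (aro- and trp-) were lower, among them trp-3 (NCU08409), which encodes tryptophan synthase, at 241 and 242 CPM in set-2 H3G34R, against 516 and 522 CPM in set-2 ash1(Y888F), a log2 difference of −1.10 (SE 0.102, adjusted p = 0.000957). The 2 libraries of each genotype nearly coincided for this gene, and its derived wild types differed by −0.25. The multifunctional shikimate-pathway gene aro-1 (NCU01632) was at 224 and 209 against 403 and 342 CPM, −0.78 (SE 0.127, adjusted p = 0.00491), with a derived wild-type difference of −2.12. All 4 lysine genes (lys-) and all 3 proline genes (pro-) were lower too. Leaving out set-2 H3G34R library 1 left 8 aromatic, 4 lysine and 1 proline genes lower, and leaving out its library 2 left 7, 2 and 1.

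Of the 11 arginine genes (arg-), 9 were lower. The largest difference of the whole list was that of arg-13 (NCU02802), a mitochondrial carrier gene, at 3.73 and 7.18 CPM in set-2 H3G34R, against 20.6 and 28.2 CPM in set-2 ash1(Y888F), −2.17 (SE 0.314, adjusted p = 0.00362). This gene was lower than wild type in both of the authors' deposited tables, at log2 values of −3.31 in set-2 H3G34R and −1.53 in set-2 ash1(Y888F). The acetylornithine aminotransferase gene arg-5 (NCU05410) was at 57.7 and 51.4 against 184 and 169 CPM, −1.69 (SE 0.119, adjusted p = 0.00046). The gene arg-3 (NCU02677), for the large subunit of the arginine-specific carbamoyl phosphate synthetase, was lower, at −1.38 (adjusted p = 0.00404), and arg-12 (NCU01667), for ornithine carbamoyltransferase, at −1.38 (adjusted p = 0.00401), while arg-14 and arg-15 did not pass. The count of lower arginine genes was 7 without either set-2 H3G34R library. For arg-13 the derived wild types differed by −0.35, for arg-5 by −1.54, for arg-3 by −2.77 and for arg-12 by −1.90.

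Among the histidine genes (his-), 3 of 4 were lower, led by his-6 (NCU07156), at 75.6 and 63.1 CPM in set-2 H3G34R, against 269.5 and 239 CPM in set-2 ash1(Y888F), −1.87 (SE 0.134, adjusted p = 0.000482). This gene stood close to wild type in both of the authors' deposited tables, at 0.27 and 0.25, and its derived wild types differed by −1.88. Of 9 leucine, isoleucine and valine genes 7 were lower, including leu-4 (NCU02010), which encodes isopropylmalate synthase, at 144 and 143 against 491 and 323 CPM, −1.50 (SE 0.197, adjusted p = 0.0027). Of 15 methionine and cysteine genes 10 were lower. The methionine synthase gene met-8 (NCU06512) was at 2858 and 2937 CPM in set-2 H3G34R and 9642 and 7709 CPM in set-2 ash1(Y888F), −1.58 (SE 0.165, adjusted p = 0.00145), and at 4638 and 4983 CPM in H3G34R. Both set-2 H3G34R libraries were thus below all others for this gene. Leaving out set-2 H3G34R library 1 left 2 histidine, 4 branched-chain and 5 methionine and cysteine genes lower, and leaving out its library 2 left 2, 3 and 5. For leu-4 the derived wild types differed by −1.85 and for met-8 by −3.31.

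The glutamine synthetase genes gln-1 (NCU06724) and gln-2 (NCU04856) were lower, at log2 values of −0.91 (adjusted p = 0.0267) and −0.85 (adjusted p = 0.0176). The call of gln-1 was lost at adjusted p = 0.129 without set-2 H3G34R library 1, 0.135 without set-2 H3G34R library 2, 0.0521 without N5247 and 0.0522 without N5248, and that of gln-2 at adjusted p = 0.117 without set-2 H3G34R library 1 and 0.0667 without set-2 H3G34R library 2. Their derived wild types went opposite ways, −0.58 for gln-1 and 0.61 for gln-2. Cross-pathway control is known to raise amino acid genes together when any amino acid is short, through the activator CPC1. Its gene cpc-1 (NCU04050) was at 1410 and 1424 CPM in set-2 H3G34R and 1956 and 1677 CPM in set-2 ash1(Y888F), and its log2 difference of −0.36 (SE 0.13, adjusted p = 0.0681) did not pass. The gene cpc-2 (NCU05810), for a ribosome-associated WD-repeat protein, was lower, at −0.63 (adjusted p = 0.0182), a call lost at adjusted p = 0.0912 without set-2 H3G34R library 1 and 0.125 without set-2 H3G34R library 2, and cpc-3 (NCU01187), for the kinase that senses amino acid shortage, was at −0.32 (adjusted p = 0.0523). Not all members make amino acids: leu-5, leu-6 and trp-5 encode aminoacyl-tRNA synthetases, cys-14 a sulphate permease and cys-3 the sulphur regulator, and the last 2 of these did not pass. For cpc-1 the derived wild types differed by −0.50, for cpc-2 by −0.52 and for cpc-3 by −0.27.

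**Figure D3:**
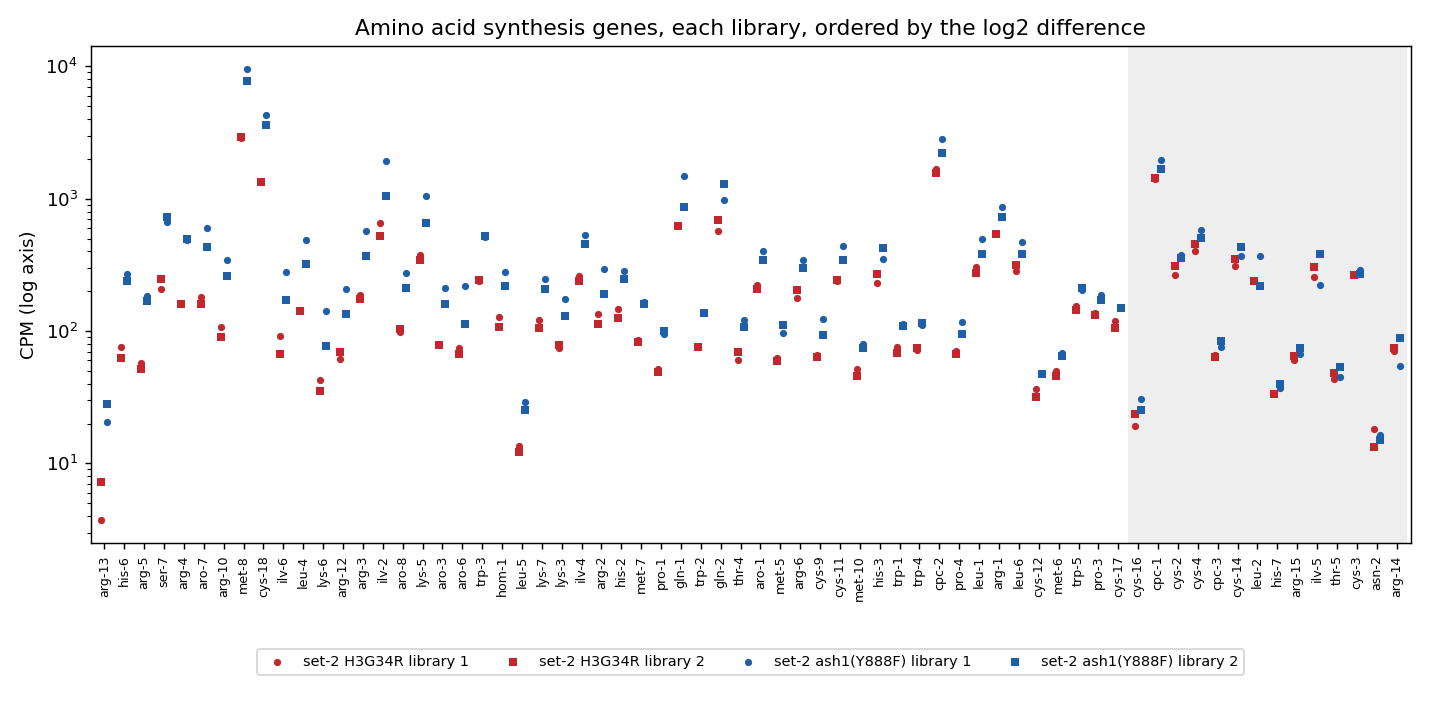
CPM per library (log axis) for the 66 amino acid synthesis genes, set-2 H3G34R in red left of set-2 ash1(Y888F) in blue, circles for library 1 or N6266 and squares for library 2 or N6267, ordered by the log2 difference. The 14 genes on grey did not pass the test, and in most others both red points lie below both blue points. Libraries of the 2 genotypes also did not overlap, in either direction, at most tested genes. These were 233 of the 381 genes with set-2 ash1(Y888F) strains over 2-fold apart and 5890 of the other 8180.

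Purine and pyrimidine synthesis genes were lower for 7 of 10, with 1 higher and 2 not past the test (70.0% lower, beside 19.9% of all genes). All 8 of these calls passed in every fit that left out 1 library. The purine gene ad-9 (NCU00843) was at 42.8 and 39.1 CPM in set-2 H3G34R, against 98.3 and 87.8 CPM in set-2 ash1(Y888F), −1.18 (SE 0.115, adjusted p = 0.00113), and gua-3 (NCU02325) was lower, at −1.31 (adjusted p = 0.000927). The pyrimidine gene pyr-3 (NCU08287), for carbamoyl phosphate synthetase and aspartate transcarbamylase, was lower, at −1.18 (adjusted p = 0.00414). The member that was higher, xdh-1 (NCU03350), encodes xanthine dehydrogenase, which breaks purines down, and was at 45.9 and 48.1 CPM in set-2 H3G34R, against 20.5 and 24.7 CPM in set-2 ash1(Y888F), 1.06 (SE 0.145, adjusted p = 0.00312). Derived wild types of the list had a median difference of −1.02. For ad-9 the derived wild types differed by −0.60, for gua-3 by −1.03, for pyr-3 by −1.54 and for xdh-1 by 0.25.

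Mitochondrial energy genes moved the same way. Of 17 genes of the respiratory chain beyond complex I, ATP synthase and mitochondrial biogenesis, 12 were lower, none was higher and 5 did not pass. The share lower was 70.6%, beside 19.9% of all genes. The cytochrome c gene cyc-1 (NCU01808) was at 259.7 and 210.3 CPM in set-2 H3G34R, against 1661 and 786 CPM in set-2 ash1(Y888F), −2.38 (SE 0.338, adjusted p = 0.00343), and at 1784 and 1830 CPM in H3G34R. The set-2 ash1(Y888F) strains were themselves over 2-fold apart for cyc-1, and its derived wild types differed by −5.40. Without N6266 the log2 difference of cyc-1 was −1.74. The ATP synthase genes atp-1 (NCU02514) and atp-2 (NCU05430), for the alpha and beta subunits of F1, were lower, at −0.99 (adjusted p = 0.00324) and −0.88 (adjusted p = 0.00375). The ADP/ATP carrier gene aac (NCU09477), outside the list, was at 2713 and 2300 CPM in set-2 H3G34R and 5886 and 4997 CPM in set-2 ash1(Y888F), −1.12 (SE 0.157, adjusted p = 0.00332). Some members act in mitochondrial RNA splicing or translation and not in respiration itself, such as cyt-19 (NCU07670), a DEAD-box helicase gene for group I intron splicing, which was lower, at −1.07 (adjusted p = 0.0114), a call lost at adjusted p = 0.0683 without set-2 H3G34R library 1 and 0.0865 without set-2 H3G34R library 2. The count of lower respiratory and mitochondrial genes was 6 without set-2 H3G34R library 2. All 17 derived wild-type differences were below 0, with a median of −1.62. The authors' deposited table of set-2 H3G34R called 9 members higher than wild type and none lower. That of set-2 ash1(Y888F) called none higher and 3 lower. For atp-1 the derived wild types differed by −1.62, for atp-2 by −1.42, for aac by −1.72 and for cyt-19 by −3.09.

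In the tricarboxylic acid cycle, glyoxylate and gluconeogenesis list, 8 of 27 genes were lower, 3 were higher and 16 did not pass. These shares were 29.6% lower and 11.1% higher, beside 19.9% and 18.2% of all genes. The phosphoenolpyruvate carboxykinase gene acu-6 (NCU09873) was at 85.2 and 127 CPM in set-2 H3G34R, against 352 and 457 CPM in set-2 ash1(Y888F), −1.93 (SE 0.226, adjusted p = 0.00188). Its derived wild types nearly coincided (0.09), and it was below wild type in both of the authors' deposited tables, at log2 values of −2.78 in set-2 H3G34R and −0.79 in set-2 ash1(Y888F). In the whole list 19 of 27 derived wild-type differences were below 0, with a median of −1.14. The isocitrate lyase gene acu-3 (NCU04230) was lower, at −1.14 (adjusted p = 0.00172). The pyruvate dehydrogenase genes ace-2, ace-3 and ace-4 were lower, at −0.76 (adjusted p = 0.00472), −0.80 (adjusted p = 0.00441) and −0.79 (adjusted p = 0.00362). Among the members that were higher was acu-8 (NCU09770), an acetyl-CoA hydrolase gene, by 0.71 (adjusted p = 0.00847), a call lost at adjusted p = 0.063 without set-2 H3G34R library 2. Genes of this list that were higher and lower numbered 1 and 6 without set-2 H3G34R library 1, 0 and 6 without its library 2, 3 and 13 without N6267, and 1 and 7 without N5247 or N5248. Glycolysis and fermentation genes were lower for 2 of 10 (20%), near the 19.9% of all genes, with none higher and a derived wild-type median of 0.74. For acu-3 the derived wild types differed by −0.75, for ace-2 by −1.50, for ace-3 by −1.92, for ace-4 by −1.70 and for acu-8 by 1.22.

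Ribosomal protein genes of the cytosol were lower for all 7 that were found by symbol and tested, beside 19.9% of all genes. Their median log2 was −0.88 and their derived wild-type median −0.55. Ribosomal protein genes without a matching symbol were not covered. The gene crp-5 (NCU04552) was at 1472 and 1295 CPM in set-2 H3G34R, against 2921 and 2373 CPM in set-2 ash1(Y888F), −0.94 (SE 0.151, adjusted p = 0.00486), a call lost at adjusted p = 0.0547 without set-2 H3G34R library 2. Leaving out set-2 H3G34R library 2 left 1 of the 7 past the test, and leaving out its library 1 left 4. Of 6 genes listed as translation factors (derived wild-type median −0.36), 2 were lower: eif5A (NCU05274), at −0.89 (adjusted p = 0.00433), and cot-1 (NCU07296), known as a protein kinase gene for hyphal growth, at −0.71 (adjusted p = 0.0175), a call lost at adjusted p = 0.0946 without set-2 H3G34R library 1 and 0.0992 without set-2 H3G34R library 2. The count of lower translation factor genes was 1 without set-2 H3G34R library 1 or its library 2, and 4 without N6267. Of 5 sterol and fatty acid genes 4 were lower and 1 higher, with a derived wild-type median of 0.22. The fatty acid synthase genes cel-1 (NCU07308) and cel-2 (NCU07307) were lower, at −0.65 (adjusted p = 0.00744) and −0.71 (adjusted p = 0.00705), and their derived wild types differed the other way, by 0.22 and 0.42. Their calls were lost without set-2 H3G34R library 1, at adjusted p = 0.0609 and 0.06, which left 2 of the 4 lower. The sterol C-14 reductase gene erg-3 (NCU08762) was higher, at 306 and 292 CPM in set-2 H3G34R and 167 and 193 CPM in set-2 ash1(Y888F), 0.73 (SE 0.116, adjusted p = 0.00474). For crp-5 the derived wild types differed by −0.35, for eif5A by −0.34, for cot-1 by −0.59 and for erg-3 by 1.36.

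Cell wall genes went both ways. Of 27 chitin, glucan and wall protein genes, 7 were higher and 5 lower, while 15 did not pass (25.9% higher and 18.5% lower, beside 18.2% and 19.9% of all genes). The derived wild-type median of the list was 0.82. The glucanosyltransferase gene gel-3 (NCU08909) was at 2336 and 2920 CPM in set-2 H3G34R, against 847 and 1287 CPM in set-2 ash1(Y888F), 1.30 (SE 0.236, adjusted p = 0.00714), a call lost at adjusted p = 0.0589 without set-2 H3G34R library 2, and the wall protein gene ncw-6 (NCU00586) was higher by 1.77 (adjusted p = 0.00681). Derived wild-type differences of these genes were 3.72 and 3.04, larger than the genotype differences and in the same direction. The wall protein gene acw-6 (NCU03530) was lower, at −0.85 (adjusted p = 0.00293). Wall genes that were higher and lower numbered 4 and 1 without set-2 H3G34R library 1, 1 and 2 without its library 2, 12 and 6 without N6267, and 6 and 3 without N5247 or N5248. For acw-6 the derived wild types differed by −1.58.

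Genes listed by a glycoside hydrolase family symbol (gh), whatever their role, were more often higher than lower. Of 72 glycoside hydrolase and lytic monooxygenase genes, 21 were higher (29.2%) and 9 lower (12.5%), beside 18.2% and 19.9% of all genes. The other 42 did not pass. The median of the list was 0.43 and its derived wild-type median 1.07 over 79 genes. Hydrolase and monooxygenase genes that were higher and lower numbered 9 and 4 without set-2 H3G34R library 1, and 8 and 4 without its library 2. The xylanase family genes went opposite ways: gh10-4 (NCU07130) was at 23.1 and 15.2 CPM in set-2 H3G34R, against 0.271 and 1.34 CPM in set-2 ash1(Y888F), 4.59 (SE 0.501, adjusted p = 0.00159), and gh10-3 was at 3.94 and 3.93 against 20.1 and 31.9 CPM, −2.72 (SE 0.377, adjusted p = 0.00322). Without N6266 the log2 difference of gh10-4 was 3.83 and without N6267 6.08. Both genes lie within 20 genes of an end of chromosome VI. For gh10-4 the derived wild types differed by 2.32 and for gh10-3 by −0.68.

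Markers of other developmental states were present in these cultures. The 6 matched of 7 markers of conidia and aerial hyphae summed to 615 and 1293 CPM in set-2 H3G34R, against 265 and 348 CPM in set-2 ash1(Y888F), and the 10 markers of sexual tissue summed to 509 and 549 CPM, against 186 and 306 CPM. None of these matched markers was at 0 in any library, and their part in the other results was not tested. In bulk RNA, more cells of a type and more RNA per cell cannot be told apart. Over the full lists, 5 of 12 conidiation genes (41.7%) were higher and 1 (8.33%) lower, beside 18.2% and 19.9% of all genes. Of 13 sexual genes 6 were higher (46.2%) and none lower. Those higher included the mating-type genes matA-1, matA-2 and matA-3 (NCU01958 to NCU01960). Their locus numbers are consecutive, so they may not count as separate members. The derived wild-type medians were 1.37 for conidiation genes and 0.30 for sexual genes. Of the conidiation genes, the authors' deposited table of set-2 H3G34R called 4 higher and 4 lower than wild type, with a median log2 of −0.21, and that of set-2 ash1(Y888F) called 2 higher and 1 lower, with a median of 0.44. The hydrophobin gene eas (NCU08457), whose product coats conidia, was at 164 and 658 CPM in set-2 H3G34R, against 82.3 and 24.9 CPM in set-2 ash1(Y888F), 2.93 (SE 0.831, adjusted p = 0.0316). Its libraries were over 3-fold apart within each genotype, and its call was lost at adjusted p = 0.195 without set-2 H3G34R library 2 and 0.0577 without N6267. Its log2 difference was 3.60 and 1.61 without set-2 H3G34R library 1 and 2, and 4.04 and 2.32 without N6266 and N6267. The gene csp-1 (NCU02713), for a transcriptional repressor first known from conidial separation, was at 104 and 138 CPM in set-2 H3G34R, against 65.2 and 72.6 CPM in set-2 ash1(Y888F), 0.81 (SE 0.155, adjusted p = 0.0085). Conidiation genes that were higher and lower numbered 5 and 0 without set-2 H3G34R library 1, 2 and 0 without its library 2, 3 and 0 without N6266, and 4 and 0 without N5247 or N5248. Sexual genes that were higher and lower numbered 3 and 0 without set-2 H3G34R library 1, 5 and 1 without N6266, and 7 and 1 without N6267. For eas the derived wild types differed by 1.88 and for csp-1 by 3.19.

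The protein kinase and transcription factor lists, formed by symbol, stood near or below the background. Regulators with other symbols, such as csp-1 and cpc-1, were not in these lists. Of 73 protein kinase genes 12 were higher (16.4%) and 12 lower (16.4%), beside 18.2% and 19.9% of all genes. Their derived wild-type median was 0.23. The kinase gene stk-25 (NCU03823) was at 8.98 and 7.52 CPM in set-2 H3G34R, against 35.9 and 24.7 CPM in set-2 ash1(Y888F), −1.87 (SE 0.227, adjusted p = 0.00215), and mek-1 (NCU06419), a MAP kinase kinase gene, was higher by 0.87 (adjusted p = 0.00618). Kinase genes that were higher and lower numbered 3 and 4 without set-2 H3G34R library 1, 1 and 5 without its library 2, and 8 and 7 without N5247 or N5248. Of 30 transcription factor genes (derived wild-type median 0.32) 5 were higher (16.7%) and 3 lower (10%), the largest difference being that of tah-4 (NCU07945), at 39.7 and 33.9 against 12.7 and 12.6 CPM, 1.54 (SE 0.193, adjusted p = 0.0024). The gene tah-3 (NCU03686) was higher by 1.43 (adjusted p = 0.00304), with a derived wild-type difference of 3.31. Transcription factor genes that were higher and lower numbered 3 and 0 without set-2 H3G34R library 1, 3 and 1 without its library 2 or N5247 or N5248, and 5 and 1 without N6266. For stk-25 the derived wild types differed by −3.32, for mek-1 by 1.08 and for tah-4 by 1.21.

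Chromatin modifier genes, the class of the altered proteins, were higher for 6 of 43 (14.0%) and lower for 8 (18.6%). Of all genes 18.2% were higher and 19.9% lower, so this list was not above the background. Its derived wild-type median was −0.18 over 42 genes. The gene nst-7 (NCU07624), of the sirtuin deacetylase family, was at 4.95 and 4.6 CPM in set-2 H3G34R, against 12.3 and 14.6 CPM in set-2 ash1(Y888F), −1.49 (SE 0.255, adjusted p = 0.00588), a call lost at adjusted p = 0.0509 without set-2 H3G34R library 2. The SET-domain family gene set-8 (NCU01973) was at 59.7 and 55.1 CPM in set-2 H3G34R, against 25.1 and 28.7 CPM in set-2 ash1(Y888F), 1.10 (SE 0.138, adjusted p = 0.00244). Chromatin modifier genes that were higher and lower numbered 1 and 2 without set-2 H3G34R library 1 or its library 2, 5 and 3 without N6266, and 3 and 3 without N5247 or N5248. The ash1 gene itself (NCU01932, listed as set-3) was at −0.35 (adjusted p = 0.0288) and the histone H3 gene hH3 (NCU01635) at −0.43 (adjusted p = 0.0372), and neither call held in every fit that left out a library (adjusted p up to 0.121 and 0.191, in both cases without set-2 H3G34R library 2). Of 13 DNA replication and histone genes (derived wild-type median −0.46) 3 were lower (23.1%) and 1, hH4v (NCU04338), was higher, by 0.66 (adjusted p = 0.00835), a call lost at adjusted p = 0.0647 without set-2 H3G34R library 1. Replication and histone genes that were higher and lower numbered 0 and 0 without set-2 H3G34R library 1, 1 and 0 without its library 2, 2 and 1 without N6266, and 1 and 1 without N5247 or N5248. For nst-7 the derived wild types differed by 0.93, for set-8 by 1.42, for set-3 by −0.18, for hH3 by −0.12 and for hH4v by 0.64, opposite in sign to the genotype difference for nst-7.

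In the cell structure and organelle lists the direction with more calls stood at 20% to 25% of genes, beside 18.2% of all genes higher and 19.9% lower. Of 24 cytoskeleton and motor genes 5 were lower (20.8%) and none higher, among them the actin gene act (NCU04173), at −0.45 (adjusted p = 0.0331), and the dynein gene ro-1 (NCU06976), at −0.45 (adjusted p = 0.0148). Of 16 vacuolar genes 4 were higher (25%) and 1 lower (6.25%), with the ATPase gene vma-8 (NCU08035) higher by 0.57 (adjusted p = 0.0101). Of 20 peroxisome genes 4 were higher (20%) and 1 lower (5%), with pex24 (NCU06637) higher by 0.77 (adjusted p = 0.0125). The derived wild-type medians were −0.17 for cytoskeleton, 0.27 for vacuolar and 0.29 for peroxisome genes. None of the calls in these 3 lists passed every fit that left out a library: act reached adjusted p = 0.188, ro-1 0.083, vma-8 0.0719 and pex24 0.0844 in the fit without set-2 H3G34R library 2. The count of lower cytoskeleton genes was 0 without set-2 H3G34R library 1 or its library 2, 3 without N6266, and 2 without N5247 or N5248. Vacuolar genes that were higher and lower numbered 2 and 0 without set-2 H3G34R library 1, 0 and 0 without its library 2, and 2 and 1 without N6266 or N5247 or N5248. Peroxisome genes that were higher and lower numbered 0 and 0 without set-2 H3G34R library 1 or its library 2, 5 and 2 without N6266, 3 and 2 without N6267, and 3 and 0 without N5247 or N5248. For act the derived wild types differed by −0.76, for ro-1 by 0.69, for vma-8 by 0.91 and for pex24 by 0.92, opposite in sign to the genotype difference for ro-1.

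**Figure D4:**
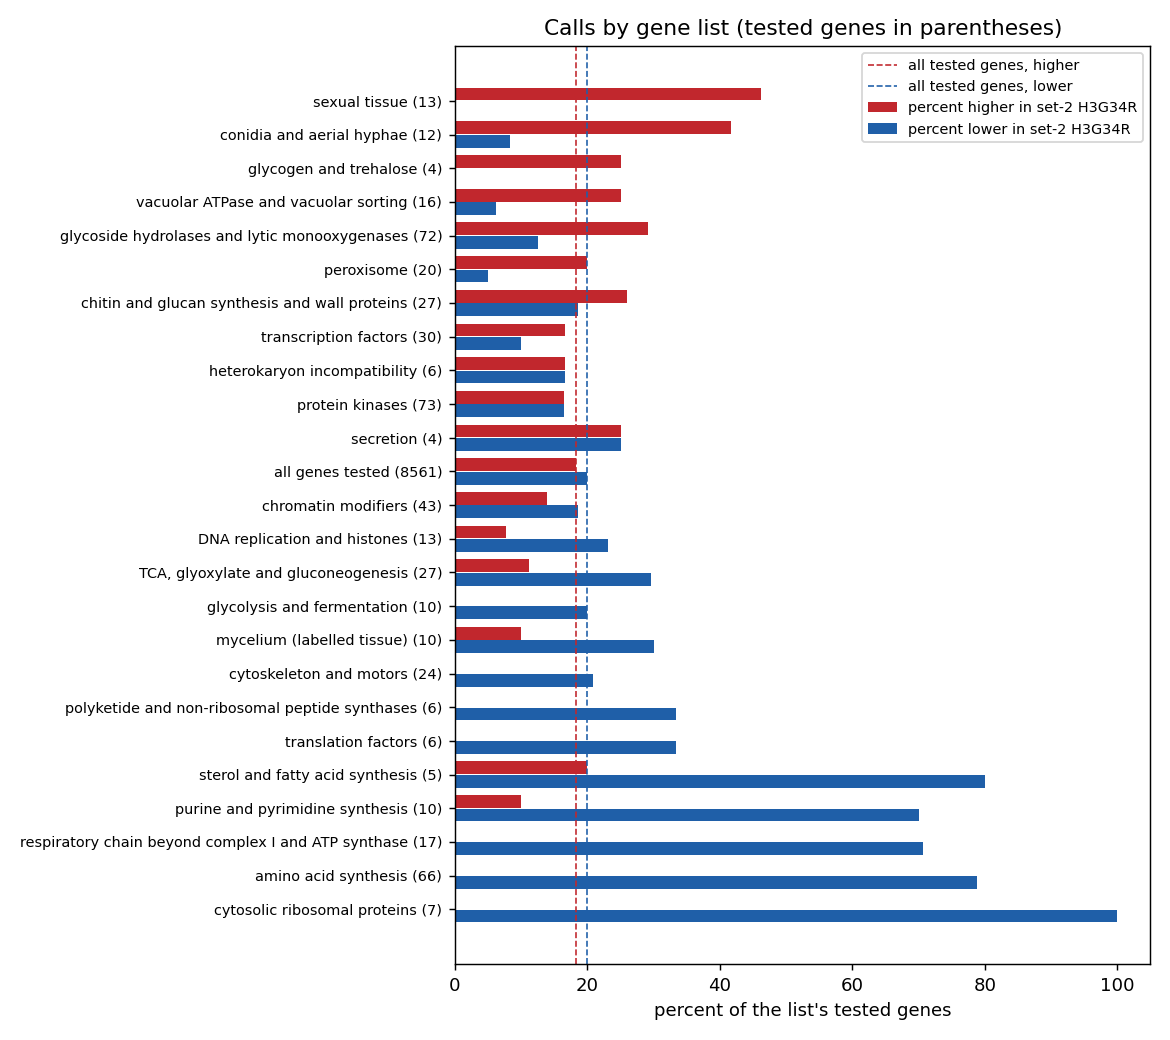
Percent of the tested genes of each list that were higher (red, upper bar) or lower (blue, lower bar) in set-2 H3G34R, with the number tested in parentheses, and dashed lines at 18.2% and 19.9% for all tested genes. Amino acid synthesis reached 78.8% lower with no gene higher, while protein kinases were at 16.4% in each direction.

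The largest single difference towards higher levels was that of NCU09968, at 118 and 124 CPM in set-2 H3G34R, against 0 and 0 CPM in set-2 ash1(Y888F). With 0 reads in both strains N6266 and N6267, the gene was at least 284-fold higher in set-2 H3G34R, against a floor of 3 reads per library (adjusted p = 0.000684). Its neighbour NCU09969 was at 8.68 and 8.87 CPM, against 0 and 0 CPM, and at least 20.6-fold higher (adjusted p = 0.000774). These were the only genes with 0 sense reads in both libraries of 1 genotype and at least 30 in both of the other. Antisense reads were absent too in N6266 and N6267, while set-2 H3G34R had 20 and 8 antisense reads at NCU09968 and 112 and 123 at NCU09969. The genes on either side on chromosome VI, stk-49 (NCU07062) and NCU07061, had 363 and 314 and 315 and 532 sense reads in N6266 and N6267. In the authors' deposited tables NCU09968 was at −0.27 in set-2 H3G34R and −7.24 in set-2 ash1(Y888F) relative to wild type.

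Other genes were high in set-2 H3G34R and low but present in set-2 ash1(Y888F). The gene app (NCU04533), expressed in perithecia, was at 2048 and 2123 CPM, against 98.3 and 74.1 CPM, and at 3.95 and 5.64 CPM in H3G34R, with a difference of 4.60 (SE 0.212, adjusted p = 8.71e-05). Relative to wild type in the authors' deposited tables it was at 9.02 in set-2 H3G34R and 5.66 in set-2 ash1(Y888F), above wild type in both. NCU05788 was at 799 and 459 CPM in set-2 H3G34R, against 18.8 and 26.7 CPM in set-2 ash1(Y888F), 4.79 (SE 0.559, adjusted p = 0.00188), and went opposite ways from wild type in the authors' deposited tables, 2.32 in set-2 H3G34R and −1.61 in set-2 ash1(Y888F). By contrast NCU09906, at 255 and 253 against 8.27 and 11.4 CPM, 4.69 (SE 0.301, adjusted p = 0.000334), was at −0.65 and −0.64 relative to wild type in the same tables, and its derived wild types differed by 4.69. The remaining 8 of the 12 largest differences towards higher levels had log2 values from 4.11 to 5.68. For app the derived wild types differed by 1.30 and for NCU05788 by 0.62.

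Among genes lower in set-2 H3G34R, NCU01402 differed most, at 1.72 and 2.24 CPM, against 3530 and 4882 CPM in set-2 ash1(Y888F), −11.05 (SE 0.294, adjusted p = 3.81e-05). It was also low in H3G34R, at 8.87 and 7.94 CPM, and its derived wild types differed by −10.30, nearly as much as the genotypes. NCU04697 was at 3.23 and 2.36 CPM in set-2 H3G34R, against 1200 and 1755 CPM in set-2 ash1(Y888F), −9.03 (SE 0.313, adjusted p = 5.49e-05), but at 1653 and 1941 CPM in H3G34R. In the authors' deposited tables it was at 0.55 over wild type in set-2 H3G34R and 6.57 in set-2 ash1(Y888F). NCU02019 was at 1.82 and 1.91 CPM in set-2 H3G34R, against 140.3 and 93.9 CPM in set-2 ash1(Y888F), −5.97 (SE 0.311, adjusted p = 0.00014), with a derived wild-type difference of 0.38. NCU08531 was at 1.11 and 1.23 against 36.7 and 37 CPM, −4.96 (SE 0.252, adjusted p = 0.000124), and its derived wild types differed by 0.43. The alternative oxidase gene aod-1 (NCU07953) and the L-amino acid oxidase gene lao (NCU01066) were among the 12 largest, at −4.67 and −5.33, the second at −4.74 without N6266. For NCU04697 the derived wild types differed by −3.01, for aod-1 by −3.11 and for lao by −3.0.

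Over the 186 genes at least 4-fold apart with a mean over 50 in both of the authors' deposited tables, 115 (61.8%) had derived wild types over 2-fold apart in the same direction, 47 (25.3%) had them within 2-fold and 24 (12.9%) had them over 2-fold apart in the other direction. Of the 60 that were higher, 48 had wild types apart in the same direction and 7 within 2-fold, and of the 126 that were lower, 67 and 40 in the same order. Of all 1562 genes higher in set-2 H3G34R, the authors' deposited table of set-2 H3G34R called 446 (28.6%) higher and 372 (23.8%) lower than wild type, beside 19.6% and 21.8% of all 9577 genes in that table. The authors' deposited table of set-2 ash1(Y888F) called 235 (15%) of them higher and 83 (5.31%) lower, beside 10.8% and 6.41% of all 8718 genes in it. Of the 1702 lower genes, the authors' deposited tables called 406 (23.9%) higher and 458 (26.9%) lower in set-2 H3G34R, and 221 (13%) higher and 198 (11.6%) lower in set-2 ash1(Y888F).

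The genes with the highest CPM among those at least 2-fold apart, a ranking that also depends on gene length, included NCU07232, at 11980 and 13062 CPM in set-2 H3G34R, against 1068 and 2822 CPM in set-2 ash1(Y888F), 2.69 (SE 0.451, adjusted p = 0.0055). The gene ccg-14 (NCU07787) was at 3560 and 4746 CPM, against 404 and 1224 CPM, 2.35 (SE 0.477, adjusted p = 0.0101). In the authors' deposited tables NCU07232 was at −1.09 in set-2 H3G34R and 3.80 in set-2 ash1(Y888F) relative to wild type, the reverse of the order between the genotypes, and ccg-14 was below wild type in both, at −3.98 and −0.79. For both genes the set-2 ash1(Y888F) strains were over 2-fold apart. Without N6267 the log2 difference of NCU07232 was 3.55. That of ccg-14 was 1.76 without N6266 and 3.36 without N6267, and its call was lost at adjusted p = 0.068 without set-2 H3G34R library 2. NCU16635, the gene without a match in the reference table, was at 2799 and 2430 CPM in set-2 H3G34R and 6810 and 5619 CPM in set-2 ash1(Y888F), −1.25 (SE 0.161, adjusted p = 0.00259). For NCU07232 the derived wild types differed by 7.68, for ccg-14 by 5.20 and for NCU16635 by −0.50.

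Strains N6266 and N6267 were less alike than the libraries of N6777. Over 2-fold differences were found for 381 tested genes between N6266 and N6267, of which 280 were higher in N6267. Such differences numbered 47 between the libraries of N6777 and 60 between the H3G34R strains N5247 and N5248. The formate dehydrogenase gene fdh (NCU03813) was at 44 and 35.4 CPM in set-2 H3G34R, against 89.5 and 987 CPM in set-2 ash1(Y888F), −3.76 (SE 0.976, adjusted p = 0.0234). Its log2 difference was −4.64 without N6266 and −1.17 without N6267, and its call was lost at adjusted p = 0.126 without set-2 H3G34R library 1 and 0.149 without set-2 H3G34R library 2. The potassium transporter gene hak-1 (NCU00790) was at 384 and 508 CPM, against 57.3 and 380.5 CPM, and its difference of 1.03 (SE 0.762, adjusted p = 0.324) did not pass. NCU01861 was at 227 and 357 CPM in set-2 H3G34R, against 14.9 and 199 CPM in set-2 ash1(Y888F), 1.45 (SE 0.919, adjusted p = 0.25). NCU02880 was at 0.303 and 0.112 CPM, against 39.2 and 4.75 CPM, and its log2 difference of −6.61 was −4.40 without N6266 and −7.44 without N6267. Without set-2 H3G34R library 1 it was −7.47, and the call was lost at adjusted p = 0.0756 without set-2 H3G34R library 1 and 0.0843 without set-2 H3G34R library 2. Of these 381 genes 143 passed the test (37.5%), and of the other 8180 genes 3121 did (38.2%). For fdh the derived wild types differed by 1.93, for hak-1 by 2.26, for NCU01861 by 3.15 and for NCU02880 by −5.04, opposite in sign to the genotype difference for fdh.

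Some genes past the test lay in runs of neighbours past it in the same direction. In the gene order of the NC12 reference, 36 runs of at least 4 neighbours were called in 1 direction, 21 higher and 15 lower, holding 157 genes (4.81% of the 3264 called). Of all tested genes 18.2% were called higher and 19.9% lower, and the number of runs was not tested against those shares. Without set-2 H3G34R library 1 or 2 there were 8 and 4 such runs, without H3G34R strain N5247 or N5248 22 and 21, and without N6266 21. The 6 runs described are the first by length and then by mean absolute log2 difference, among 9 runs of at least 5 genes. The longest was 8 genes on chromosome IV, NCU04491 to NCU04486, all higher. Within it NCU16806 differed most, at 159 and 140.2 CPM in set-2 H3G34R, against 31.2 and 44.7 CPM in set-2 ash1(Y888F), 1.98 (SE 0.186, adjusted p = 0.00101). The derived wild types of this run went both ways, from −2.81 at NCU04490 to 3.61 at NCU16806. A run of 6 on chromosome VII, NCU05863 to NCU17283, was higher at low levels, with NCU05866 at 4.44 and 3.37 CPM in set-2 H3G34R, against 0.136 and 0.149 CPM in set-2 ash1(Y888F). The 5 genes at 1 end of chromosome II, NCU09634 to NCU09630, were all higher, led by NCU09634 itself, the outermost gene, at 23.8 and 25.6 CPM in set-2 H3G34R, against 0.542 and 1.63 CPM in set-2 ash1(Y888F), 4.51 (SE 0.343, adjusted p = 0.000583). Its log2 difference was 3.90 without N6266 and 5.47 without N6267. In every fit that left out a library, 3 of the 8, 2 of the 6 and 4 of the 5 genes of these runs kept their calls. For NCU09634 the derived wild types differed by 2.37.

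Of the runs of 5 lower genes, the one with the largest mean absolute log2 difference was on chromosome IV, NCU07596 to NCU11363. In its middle NCU11365 was at 20.9 and 26.4 CPM in set-2 H3G34R, against 1395 and 1461 CPM in set-2 ash1(Y888F), −5.92 (SE 0.176, adjusted p = 3.96e-05), and at 20.4 and 23.2 CPM in H3G34R. Its neighbours NCU07597 and NCU11364 were at 3.94 and 2.92 CPM against 48.5 and 50.2 CPM and at 5.45 and 5.95 CPM against 36.7 and 28.5 CPM. All 5 derived wild types of this run were below 0, from −3.81 at NCU11365 to −0.49 at NCU11363. Runs on chromosome V (NCU09693 to NCU09689, 5 genes higher) and chromosome III (NCU11406 to NCU09504, 5 genes lower) were the remaining 2 of the 6 described. In every fit that left out a library, 4, 3 and 2 of the 5 genes of these runs kept their calls. The log2 difference of NCU11363 was −3.69 without set-2 H3G34R library 2, against −3.08 with all libraries.

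**Figure D5:**
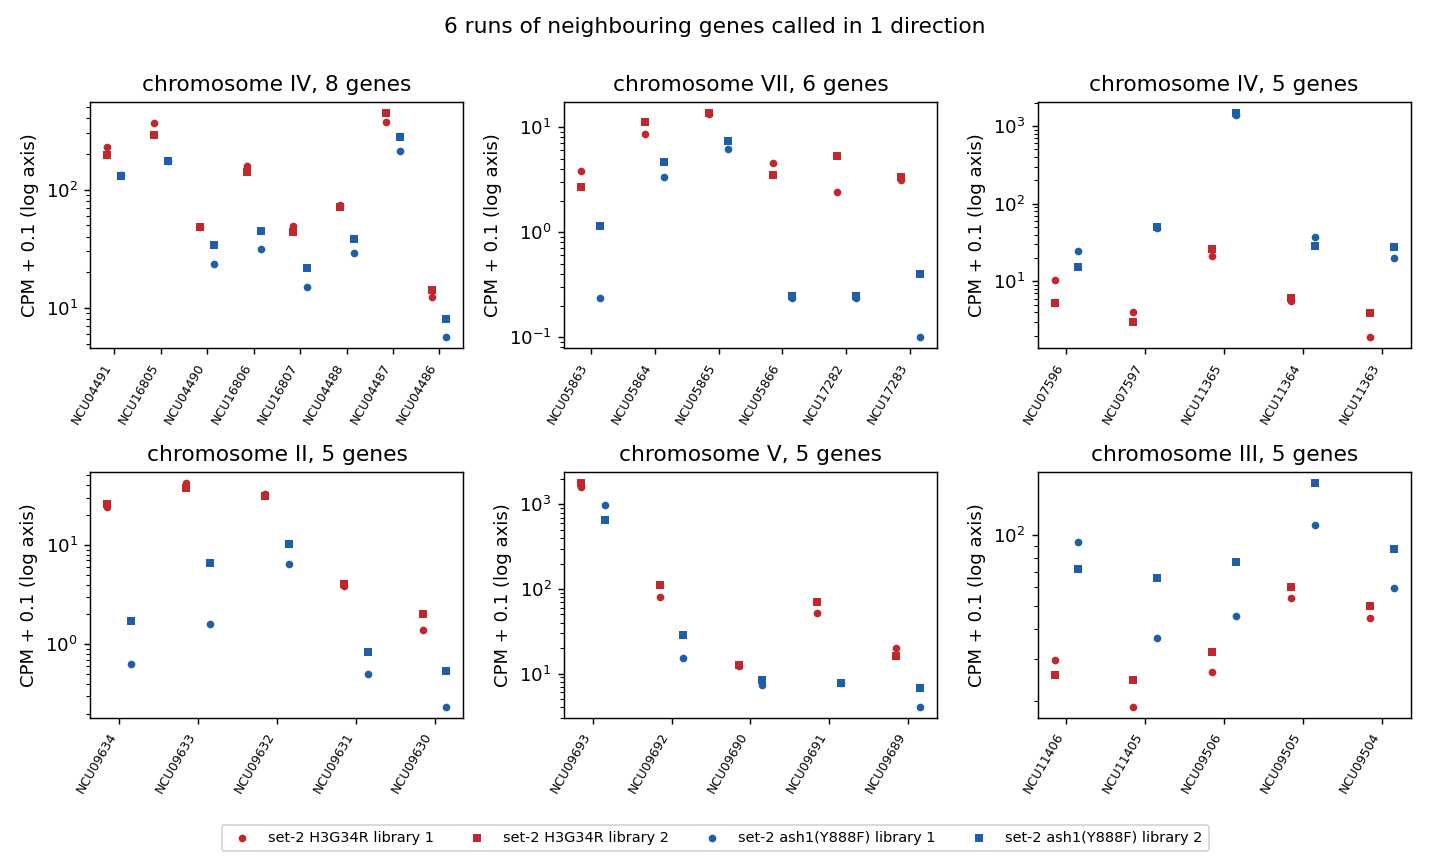
CPM + 0.1 per library (log axis) for 6 of the 9 runs of at least 5 neighbouring genes called in 1 direction, set-2 H3G34R in red left of set-2 ash1(Y888F) in blue, circles for library 1 or N6266 and squares for library 2 or N6267. In 4 panels the red points lie above the blue, and in the runs NCU07596 to NCU11363 and NCU11406 to NCU09504 below them.

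Chromosome ends held a larger share of large differences. Among the outermost 20 genes at each end of the 7 chromosomes, 28 of 249 tested genes (11.2%) were past the test and at least 4-fold apart, 19 higher and 9 lower, against 4.76% of the 8311 genes further in. The share past the test at any size was 44.2% at the ends and 37.9% further in. Without 1 library at a time, 9.02% to 16.5% of end genes and 3.53% to 6.63% of the others were past the test and at least 4-fold apart. End genes had a lower median level, and its part in the difference was not tested. The gene NCU09650 on chromosome IV was at 497 and 499 CPM in set-2 H3G34R, against 30.6 and 52 CPM in set-2 ash1(Y888F), 3.59 (SE 0.272, adjusted p = 0.000583), and NCU08882, the outermost gene at 1 end of chromosome V, was lower, at 249.7 and 232 CPM, against 1032 and 934 CPM, −2.03 (SE 0.117, adjusted p = 0.000232). For NCU09650 the derived wild types differed by −1.67 and for NCU08882 by −0.56, opposite in sign to the genotype difference for NCU09650.

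Reads on the strand opposite to a gene differed for 1611 of 4299 genes with enough of them (37.5%), 397 higher (9.23%) and 1214 lower (28.2%), when levels were scaled by the sense libraries. Scaled by antisense totals and their own TMM factors, 737 were higher and 735 lower, so no overall direction is given. Without a library of set-2 H3G34R or strain N6266, 978, 997 and 950 genes passed. Antisense reads were 3.49% and 3.46% of reads in genes in set-2 H3G34R, against 3.68% and 3.78% in set-2 ash1(Y888F). At NCU05311 the antisense level was 124 and 127 CPM in set-2 H3G34R, against 6.64 and 4.16 CPM in set-2 ash1(Y888F), 4.53 (SE 0.252, adjusted p = 1.39e-11), while its sense level was 36.1 and 42.3 CPM, against 36.7 and 36.1 CPM, 0.11 (adjusted p = 0.61). H3G34R had 0.0964 and 0.0957 antisense CPM there.

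At NCU01403 the antisense level was 3.33 and 4.49 CPM in set-2 H3G34R, against 237 and 339.8 CPM in set-2 ash1(Y888F), −6.20 (SE 0.278, adjusted p = 6.17e-13). Its neighbour in gene order is NCU01402, the gene with the largest difference towards lower levels, and the sense level of NCU01403 was higher, by 0.90 (adjusted p = 0.0155). At NCU04697 antisense and sense were both lower, with antisense at 0.101 and 0 CPM, against 9.35 and 12.5 CPM, −7.35 (SE 0.555, adjusted p = 2.04e-09). H3G34R, where the sense level of this gene was 1653 and 1941 CPM, had 7.90 and 8.80 antisense CPM there. Among 4101 genes tested on both strands, 533 of the 1195 with lower antisense (44.6%) also had lower sense levels and 56 (4.69%) higher ones, and of the 349 with higher antisense 83 (23.8%) had higher sense levels and 58 (16.6%) lower ones. Of all 4101 genes 547 (13.3%) had higher and 1104 (26.9%) lower sense levels, and of those with antisense not past the test 408 (16%) had higher and 513 (20.1%) lower ones. The authors' count tables hold both strands of the same libraries, so these strands share any scaling. At NCU07060 antisense reads were 938 and 915 in set-2 H3G34R, and 314 and 532 in set-2 ash1(Y888F). Sense reads of its neighbour NCU07061 were nearly the same, at 939 and 915, and 315 and 532. Whether antisense reads come from antisense transcripts, from overlapping neighbours or from incomplete strand separation was not tested.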

How the data were processed

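Poly-A RNA libraries, made with a stranded mRNA kit per the labels' protocols, were counted per gene by the authors, whose tool per the submitters' processing notes was STAR 2.6.0. The name of the genome build and annotation is not given in the sources used here. Every deposited table holds raw read counts for either strand and for each strand; the strand column with more reads was taken as sense, and lines of unassigned reads were left out. The authors also deposited comparisons of each genotype with its wild type (DESeq2 1.18.1 per the submitters' processing notes). Their columns, read from the values because no header is given, are a mean normalised signal deposited per gene, the authors' log2 fold change over wild type, a Wald score from the authors, and the authors' p-values and adjusted p-values. In deriving wild-type levels, mutant and wild-type libraries were taken to be equal in number in a table, and the derived wild-type differences were centred on their median. The derived wild types of the 2 tables turned out to differ, although the wild types had been assumed to be shared.

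Sense counts of all 6 libraries were fitted together with edgeR 4.0.16 (TMM, filterByExpr by genotype, glmQLFit and glmQLFTest, two-sided), and set-2 H3G34R was contrasted with set-2 ash1(Y888F), with Benjamini-Hochberg adjustment over 8561 genes at 0.05. Adjusted p-values of sense levels come from this test. The spread was a common biological coefficient of variation of 0.149. Antisense counts had a fit of their own with effective library sizes taken from the sense counts, adjusted over 4299 genes. The 4 libraries compared hold 7.52 to 9.41 M sense reads, and 3 reads correspond to 0.303 to 0.446 CPM. Floors cover counting error only. The pairs of libraries compared here each differed beyond counting noise (chi-square per degree of freedom 12.2 and 38.1). The fit was tested on simulated counts.

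Gene symbols and gene order came from a RefSeq table of assembly NC12, which matched 9729 of 9730 genes and gives 1118 of them a symbol. Lists were formed by symbol. The members and lists were chosen with earlier results of these data known. Named genes were set-2, ash1 and hH3, the 12 largest differences in each direction at a mean of at least 10 CPM, genes at 0 reads in 1 genotype, up to 4 genes a list, 6 runs by length and then mean absolute log2, 4 antisense genes in each direction, the 6 genes with the highest CPM and the 6 whose ash1 strains differed most. Further genes named as members of lists, end genes and neighbours were chosen after their values were seen, as were the derived wild types and the amino acid families. Alternatives were DESeq2 1.42.0, other scalings, filters and strand columns, a minimum change of 1.5-fold, the 4 libraries alone and leaving out each library. Software was R 4.3.3, limma 3.58.1, and Python 3.11.15 with matplotlib 3.10.9.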

Additional observations from a re-analysis of the deposited data

How the results depend on the processing

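The count of 3264 genes stayed within 1.5 times under other scalings, filters, the either-strand counts, DESeq2 and the 4 libraries alone. It fell to 1131 (505 higher and 626 lower) against a minimum change of 1.5-fold, and library size alone gave 2673 higher genes. Leaving out each library in turn gave 1388 to 3766 genes that differ, 618 to 1791 higher, 770 to 1975 lower, 163 to 371 at least 4-fold higher, 153 to 231 at least 4-fold lower and 950 to 1695 antisense genes. The low ends of the counts of all, higher and lower genes came without set-2 H3G34R replicate 2 (1551 genes differed without its replicate 1), and 371 genes were at least 4-fold higher without strain N6267. Where a genotype is left with 1 library, it is assumed to vary like the others. Antisense calls numbered 859 with DESeq2. No named gene changed direction under any alternative run. Of the named-gene values, 286 lost the call, 7 gained it and 1933 did neither. Of 66 amino acid genes, 27 remained lower against a minimum of 1.5-fold. Within 10 and 40 genes of the ends, 48.3% and 47.0% of genes passed. Runs of at least 3 genes numbered 142 and of at least 5 genes 9, and runs of at least 3 genes that all differed by 2-fold 46. No paired analysis was possible because the libraries carry no shared replicate numbers. At 2 libraries a genotype, genes in the lowest of 4 bands of CPM passed least often.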
